A study of Drosophila melanogaster with 9 samples.

Results

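CNS tissue in which glia expressed an activated form of the FGF receptor Heartless (HtlACT) was compared directly with CNS tissue labelled as overexpressing the insulin receptor (InR) in glia. The comparison took the 3 HtlACT arrays and the 3 InR arrays of a series of 9, and the 3 control arrays entered no test. Each sample was the complete CNS of 10 to 15 wandering larvae of the third instar raised at 25 °C, and the genotypes were *repoGal4>UAS-Htl[ACT]*, *repoGal4>UAS-InR* and, for the controls, *repoGal4/+*. All 3 genotypes therefore carry *repoGal4*, which drives transgenes in nearly all glia, so that neither receptor was confined to a glial subtype. RNA samples were made in triplicate. No source states that they came from separate crosses or dissections, and p-values measure the spread between these samples. In all, 18769 of 18952 probe sets were compared, after the array's own control probe sets were left out. A difference in receptor cannot be told apart from a difference in transgene insertion or strain background, since each genotype is 1 fly line as far as the labels state.

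Both receptors are tyrosine kinases. Heartless is activated by the FGF ligands Pyramus and Thisbe and signals through the Ras/MAPK cascade to ETS transcription factors, while InR is activated by insulin-like peptides and signals mainly through PI3K, Akt and TOR. In the larval brain, cortex glia wrap neuronal cell bodies, perineurial and subperineurial glia form the surface blood-brain barrier, which is sealed by septate junctions, and astrocyte-like and ensheathing glia occupy the neuropil. Whole CNS RNA sums over all of these cells, over neurons and neuroblasts, and over any tissue dissected with the CNS. Fewer cells of a type and less RNA per cell cannot be told apart in such samples.

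With HtlACT, 498 probe sets (2.65% of those tested) had higher signals than in InR-labelled tissue and 538 (2.87%) had lower signals, where a call required a 1.5-fold difference and an adjusted p (limma, Benjamini-Hochberg) no higher than 0.05. Of these, 271 and 286 differed at least 2-fold, and 64 and 130 at least 4-fold. All 498 probe sets that were higher and 537 of the 538 that were lower had groups of arrays that did not overlap. A call at these limits with 3 arrays a group nearly requires this, so it adds no support to the calls. Taking the brightest probe set for each gene, 419 of 11981 genes (3.5%) were higher and 450 (3.76%) were lower. Of the 5873 genes whose mean signal reached 200, 364 (6.2%) were higher and 284 (4.84%) were lower, and their log2 fold changes had a median standard error of 0.11. At an unadjusted p below 0.05, with no fold limit, the share of all genes was 26.4%. The balance depended on the scaling. The median log2 fold change over all probe sets (HtlACT minus InR, as everywhere below) was −0.12 with the deposited scaling, −0.01 after quantile normalization and 0.16 after each array was centred on its median, and the share of called probe sets that were higher was 48.1%, 58.3% (571 higher and 409 lower) and 79.4% (1100 and 286), respectively. Differences below are relative to the deposited scaling.

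**Figure D1:**
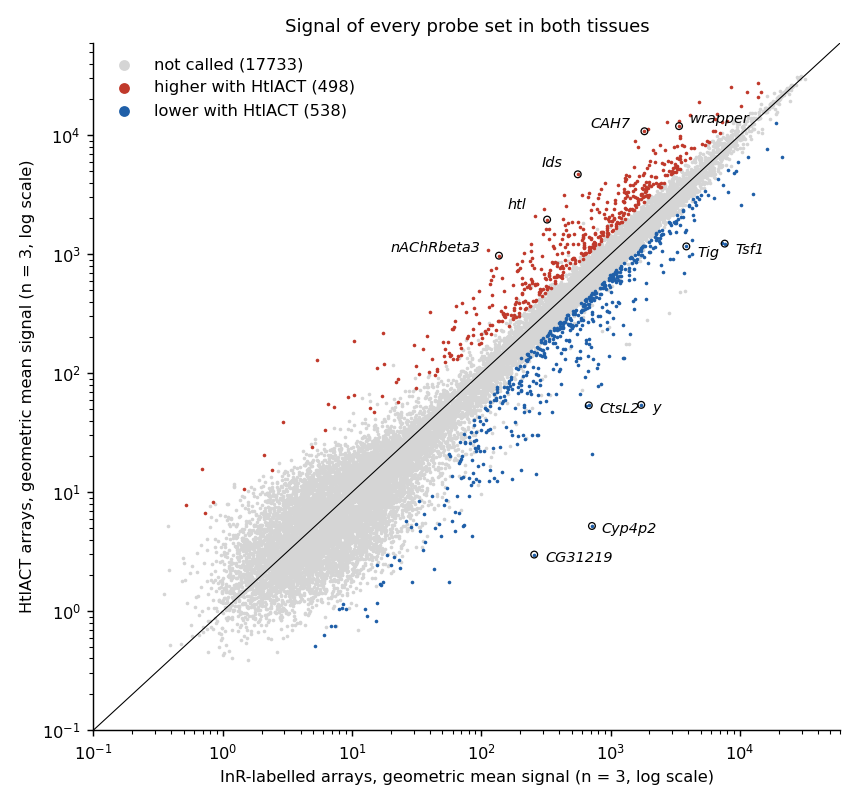
Geometric mean signal of each probe set over the 3 InR-labelled arrays (horizontal, log scale) and the 3 HtlACT arrays (vertical, log scale), with the line of equal signal. The 498 probe sets called higher with HtlACT lie above the line and the 538 called lower lie below it, and *Cyp4p2* and *CG31219* lie farthest below.

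Arrays of 1 group resembled each other more than arrays of the other group: log2 signals correlated at 0.973 to 0.980 within HtlACT and within InR-labelled tissue and at 0.943 to 0.960 between them, across probe sets that are not independent replicates. The 2% trimmed mean was 500.0 on every array, and array medians were 31.2 to 31.4 with HtlACT and 35.8 to 40.6 in InR-labelled tissue. Signals near or below these medians lie near background, where fold changes are poorly measured. Precision throughout is limited by having 3 arrays a group.

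The probe set for *htl* separated the groups. It read 2345, 1899 and 1677 on the HtlACT arrays, 367.1, 339.2 and 270.7 on the InR-labelled arrays and 342.2, 271.2 and 278.8 on the control arrays. All HtlACT arrays lay above all other arrays, a 6.05-fold difference from InR-labelled tissue (log2 fold change 2.60, standard error 0.15, adjusted p = 1.83e-05). The probe set for *InR* did not mark its own genotype. Signals were 976, 799.5 and 786.6 on the InR-labelled arrays, 602.9, 926.4 and 654.1 with HtlACT and 1192, 965.5 and 852 in controls. These ranges overlap, and the difference was −0.25 on the log2 scale (standard error 0.16, adjusted p = 0.455). Where the probes lie relative to either transgene was not examined, so *InR* provides no check of the label, and the arrays are called InR-labelled for this reason. The pan-glial homeobox gene *repo* read 8386, 8349 and 8359 with HtlACT and 5510, 5461 and 5914 in InR-labelled tissue, against 3545, 3055 and 3449 in controls. HtlACT arrays were higher throughout, but the difference of 0.57 on the log2 scale (standard error 0.07, adjusted p = 0.00115) fell just under the 1.5-fold limit. It passed that limit after median centring (0.85) and without InR replicate 3 (0.61).

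The control arrays, which took no part in choosing these genes, lay on different sides in the higher and the lower genes. Of the 419 genes higher with HtlACT, the mean log2 control signal was nearer to InR-labelled than to HtlACT tissue for 385 (91.9%), and it lay below both tissues for 289. Of the 450 genes lower with HtlACT, the control was nearer to HtlACT tissue for 261 (58%) and nearer to InR-labelled tissue for 189 (42%). It lay below both for 152 of them, between both for 184 and above both for 114. Across the brighter 9385 probe sets, controls differed less from InR-labelled arrays (median absolute log2 difference 0.294 to 0.341) than from HtlACT arrays (0.425 to 0.492). The same shares over all genes were not computed, so those given here have no baseline beside them.

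Summed markers of 4 tissues next to the CNS were higher in InR-labelled tissue. Of 11 analysed hemocyte (blood cell) genes 6 were lower with HtlACT and 0 higher, with a median log2 fold change of −2.08. Of 9 ring gland genes 5 were lower (median −1.94), of 9 tracheal genes 6 (−1.15) and of 9 muscle genes 3 (−0.82), with 0 higher in each. Summed hemocyte signals were 1554 to 1780 with HtlACT, 2270 to 3590 in InR-labelled tissue and 1278 to 1582 in controls. For ring gland genes the sums were 1412 to 2521, 3459 to 5130 and 1219 to 1539, for tracheal genes 1052 to 1364, 2824 to 3614 and 1266 to 2248, and for muscle genes 623 to 879, 1643 to 2430 and 741 to 969. In each of these 4 lists no HtlACT array reached the lowest InR-labelled array. *eater*, a phagocytic receptor of hemocytes, was dim, at 10.5, 5.53 and 33.3 with HtlACT against 55.5, 136 and 119.5, and *phtm*, an ecdysone synthesis enzyme of the ring gland, read 85.1, 279 and 188 against 781.1, 884.9 and 506.2. The hemocyte count also rested on single arrays: 0 genes passed without HtlACT replicate 1, 3 without HtlACT replicate 2 and 1 without InR replicate 2 or InR replicate 3. The ring gland count was 3 without InR replicate 1 or InR replicate 2. The juvenile hormone enzyme gene *jhamt* and the ecdysone synthesis gene *sro* were lower by 2.92 and 3.29 on the log2 scale. *Gasp*, a chitin-binding protein of tracheal tubes, read 360.5, 375.5 and 540.7 with HtlACT, 1315, 1663 and 1661 in InR-labelled tissue, and 888.5, 310 and 683.4 in controls (log2 fold change −1.88, standard error 0.16, adjusted p = 0.000155). The tracheal genes *kkv*, *obst-A* and *pio* were lower by 1.15 to 1.47, but *kkv* was not called after median centring or quantile normalization, and the mean of the probe sets of *pio* was at −0.57 (adjusted p = 0.625). How far tissue taken along with the CNS contributes to the other decreases was not tested.

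**Figure D2:**
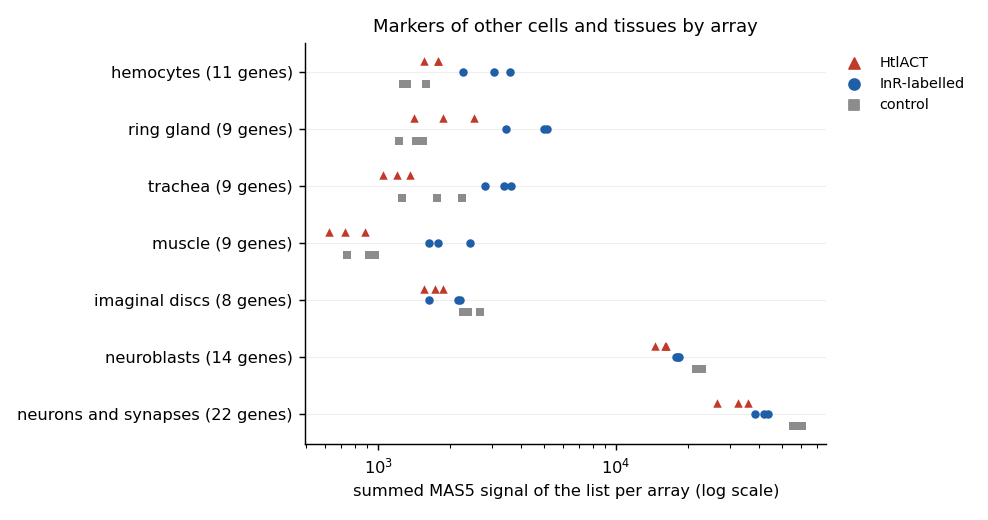
Summed signal of marker lists on each array (log scale) for HtlACT (triangles), InR-labelled (circles) and control tissue (squares), 3 arrays each. Hemocyte, ring gland, tracheal and muscle sums are higher on all InR-labelled arrays than on any HtlACT array, while imaginal disc sums overlap.

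Summed fat body markers split the InR-labelled arrays, at 8095, 27617 and 17668. The sums were 13491 to 14672 with HtlACT and 5808 to 13028 in controls. Of 5 analysed genes 1 was higher and 1 lower, with a median of −2.91. The lower gene, *AkhR*, was near background, at 0.40 to 0.67 with HtlACT and 2.79 to 10.7 in InR-labelled tissue. The larval serum protein gene *Lsp2*, named after its values were seen, read 483.7 on InR replicate 1 but 7047 and 6645 on replicates 2 and 3, against 305.1, 213.1 and 515.8 with HtlACT. The control arrays read 235.9, 2858 and 302.7. With so wide a spread the difference of −3.13 on the log2 scale (standard error 0.89) missed the limit (adjusted p = 0.0646). The lipoprotein gene *apolpp*, also of the fat body, did not split the InR-labelled arrays. It was 1.66-fold higher with HtlACT, at 12479 to 13961 against 7242 to 8874. Without InR replicates 2 and 3, which leaves a single InR-labelled array assumed to vary like the others, 259 probe sets were higher and 112 lower, and 251 and 107 of these were among the 498 and 538. By limma 0 hemocyte, 0 ring gland and 0 muscle genes and 1 tracheal gene passed in that fit. Their medians there were −1.25, −2.25, −0.57 and −0.99.

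The largest increases, among genes whose brighter group averaged at least 200, were 5.63-fold to 12.7-fold. *dpr16*, an immunoglobulin superfamily gene of the defective proboscis extension response family, read 1201, 1077 and 964 with HtlACT, 100.9, 131.7 and 110.5 in InR-labelled tissue and 159, 108.8 and 135.8 in controls, a 9.47-fold difference (log2 fold change 3.24, standard error 0.14, adjusted p = 3.77e-06). *Ids*, which encodes the lysosomal enzyme iduronate 2-sulfatase, read 4766, 4970 and 4375 against 663.2, 492.2 and 531.1, 8.42-fold higher (adjusted p = 2.75e-06), with controls at 521.9 to 787.6. The zinc transporter gene *ZnT77C* read 2441, 2109 and 1832 against 248.4, 295.3 and 241.7 (8.1-fold, adjusted p = 3.77e-06), with controls at 355.4 to 383.1. For *dpr16* and *Ids* the InR-labelled and control arrays overlapped, and for *ZnT77C* all controls lay above the InR-labelled arrays. For these 3 genes all HtlACT arrays lay far above both. *nAChRbeta3*, a nicotinic acetylcholine receptor subunit gene, differed in that its InR-labelled arrays lay above the controls. Its signals were 912, 960.2 and 1050 with HtlACT, 128.4, 157.6 and 127 in InR-labelled tissue and 60.7, 35.9 and 36.2 in controls, so that the groups formed 3 separate levels (7.1-fold between HtlACT and InR, adjusted p = 4.64e-06). *CAH7*, a carbonic anhydrase gene, and *Picot*, a gene of the phosphate cotransporter family, were 5.91-fold and 5.83-fold higher, and *CAH7* read 11969, 9223 and 11426 against 1406, 1986 and 2189. *bumpel*, a sodium-solute cotransporter gene of glia, was 5.63-fold higher. The uncharacterised genes *CG17111*, *CG3246*, *CG31323* and *CG16743* and the cytochrome P450 gene *Cyp4ac3* were 5.9-fold to 12.7-fold higher. The highest of these, *CG17111*, had InR-labelled signals of 8.32 to 26.3, below the array medians. HtlACT replicate 2 was the lowest of its group for 210 of the 419 higher genes and replicate 1 the highest for 227, as for *Cyp4ac3* at 482.8, 168.1 and 439.

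**Figure D3:**
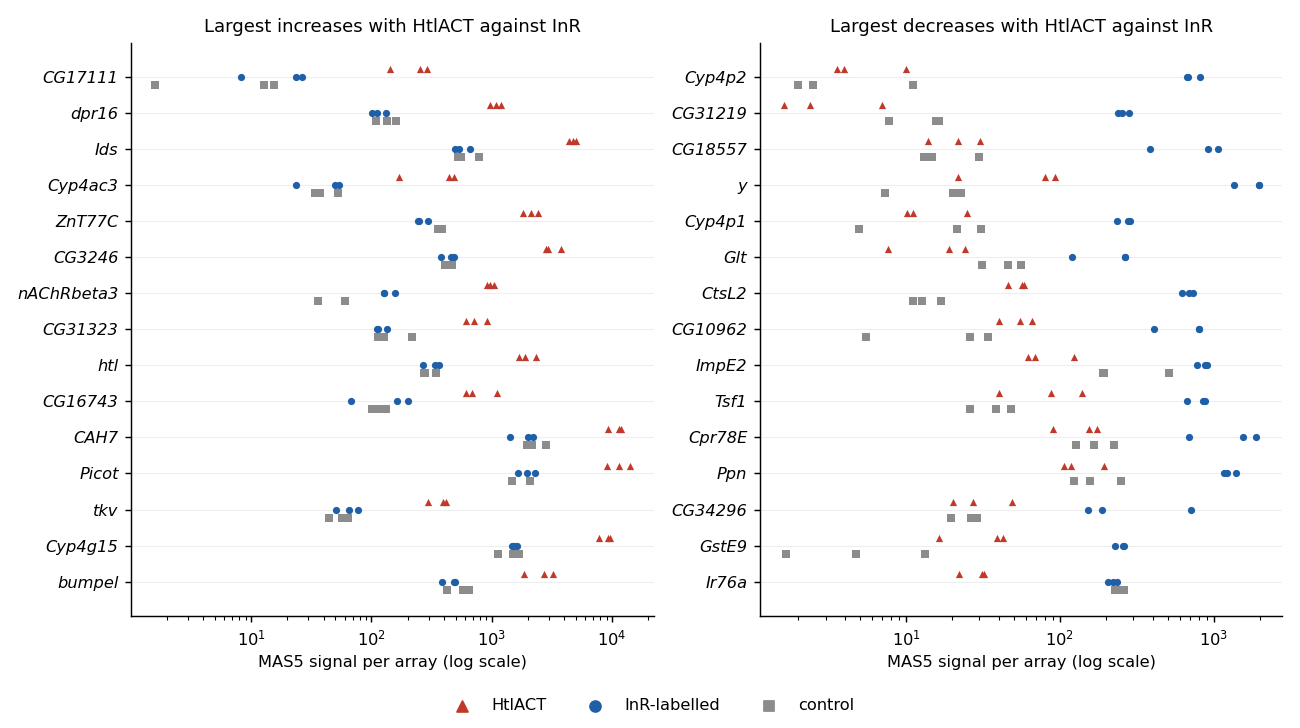
Signal on each array (log scale) for the 15 genes with the largest increases (left) and the 15 with the largest decreases (right) with HtlACT against InR, among called genes whose brighter group averaged a signal of at least 200, for HtlACT (triangles), InR-labelled (circles) and control arrays (squares), 3 of each. Controls lie near the InR-labelled arrays for most increases, such as *Ids* and *htl*, and near the HtlACT arrays for most decreases, but with the InR-labelled arrays for *Ir76a*.

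Cortex glial genes were called in the higher direction only. Of 5 analysed genes 3 were higher with HtlACT and 0 lower, with a median log2 fold change of 1.80, against −0.10 over all genes. *Cyp4g15*, a cytochrome P450 gene of cortex glia, read 9641, 7817 and 9260 with HtlACT, 1460, 1635 and 1537 in InR-labelled tissue and 1132, 1495 and 1671 in controls (log2 fold change 2.52, standard error 0.10, adjusted p = 2.75e-06). *wrapper*, which encodes an immunoglobulin protein by which glia contact neurons, read 12877, 12150 and 10860 against 3466, 3769 and 2974, with controls at 3183 to 3375 (1.82, standard error 0.11, adjusted p = 1.83e-05). In both genes the InR-labelled arrays stayed at the control level and the HtlACT arrays did not overlap them. *zyd*, a potassium-dependent sodium-calcium exchanger gene, read 8379, 6682 and 7373 against 2151, 2117 and 2128, above the controls in both tissues. The same 3 genes passed in the fit with a single InR-labelled array. *hry*, a transcriptional repressor gene, was at 0.23 (adjusted p = 0.38). *SPoCk*, a calcium pump gene named after its values were seen, lay in the other direction, at 951.9, 1298 and 1287 with HtlACT and 1678, 1496 and 1471 in InR-labelled tissue, without overlap (−0.41, adjusted p = 0.0934).

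Neuropil glial genes were called in part. Of 9 analysed, 5 were higher, 1 was lower and 3 were not called, with a median of 0.68. *gb*, a transporter gene of the genderblind cystine/glutamate exchanger, read 6944, 5408 and 5913 with HtlACT and 1860, 2299 and 1933 in InR-labelled tissue (1.58, adjusted p = 5.06e-05). The GABA transporter gene *Gat*, of astrocyte-like glia, was 2.23-fold higher, at 1909, 1001 and 1355 against 650.9, 631.8 and 565.6. *naz* and *e*, the latter encoding a beta-alanyl amine synthase, were 1.74-fold and 1.81-fold higher. For *e* the controls (273.5 to 362) matched HtlACT tissue, and InR-labelled tissue was lower (161.1 to 181.9). The transporter gene *Eaat2* went the other way, at 512.8, 748.7 and 670.4 with HtlACT, 1138, 880.6 and 925.4 in InR-labelled tissue and 1560 to 1781 in controls (−0.62, adjusted p = 0.0388), and it lost its call after median centring and after quantile normalization. The number of higher genes was 3 without HtlACT replicate 3 or InR replicate 2, and 2 with a single InR-labelled array.

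Few genes of the perineurial and subperineurial lists were called, as among all genes, of which 3.5% were higher and 3.76% lower. Septate junction genes were listed apart and are given below. Of 5 perineurial genes limma called 0 (median 0.26), while 3 had an unadjusted p below 0.05. Of 7 genes of subperineurial glia 1 was higher, *loco*, an RGS protein gene of G protein signalling in the blood-brain barrier, which read 3597, 3904 and 3964 against 2038, 1775 and 2187 (0.94, standard error 0.09, adjusted p = 0.000326). *moody*, the receptor gene upstream of this signalling, named after its values were seen, was at −0.38, with HtlACT arrays at 9348 to 11487 and InR-labelled arrays at 13224 to 14787, under the fold limit. Of 6 genes listed as pan-glial factors 2 were higher and 2 lower, and whether the lower 2 mark all larval glia was not examined. *bnb*, which is expressed in glia, was 3.92-fold higher, at 19216, 20199 and 17685 against 4737, 4917 and 4911, and *nrv2*, a glial sodium pump subunit gene, 2.19-fold higher. *gcm*, the transcription factor gene that starts glial fate in the embryo, was lower, at 649.7, 814.6 and 666.7 with HtlACT, 1187, 1156 and 1051 in InR-labelled tissue and 1669 to 1885 in controls (−0.68, adjusted p = 0.00484), but not after median centring. The other lower gene was *Glt*, which encodes a secreted glycoprotein and is described below.

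**Figure D4:**
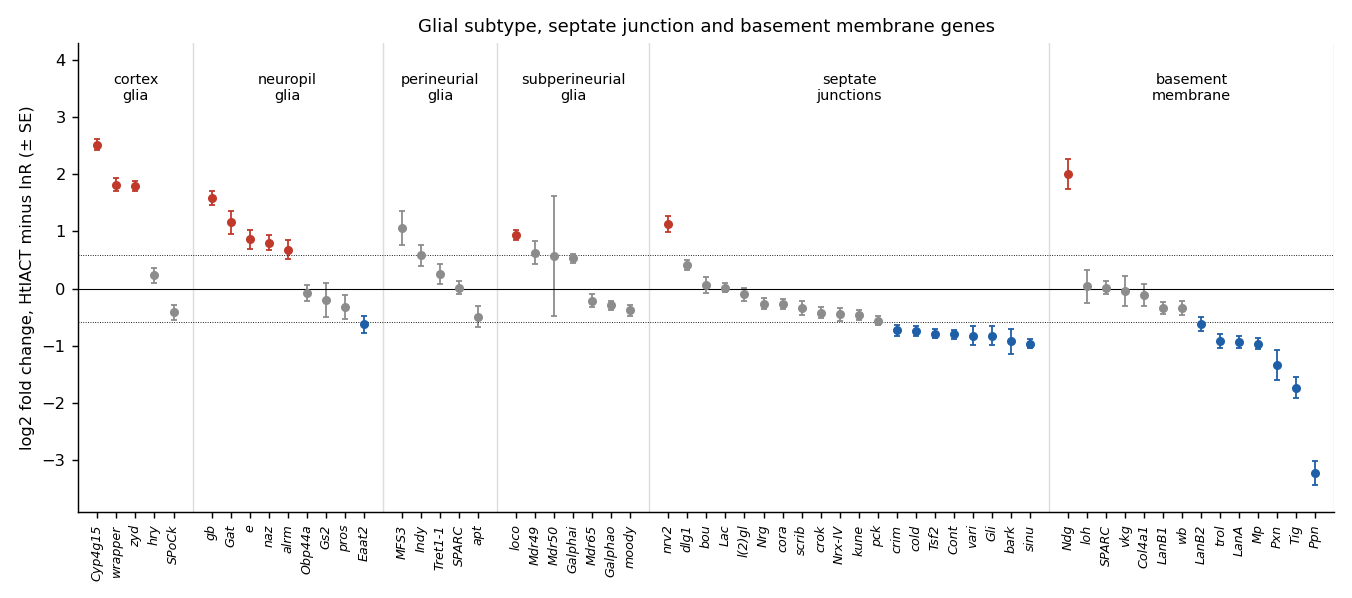
Log2 fold change (HtlACT minus InR, ± standard error from limma, 3 arrays a group) for genes of glial subtypes, septate junctions and basement membrane, with red for called higher, blue for called lower and grey for not called; dotted lines mark the 1.5-fold limit. Called cortex glial genes lie between 1.80 and 2.52, and 8 of 20 septate junction genes lie between −0.73 and −0.96.

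Transporters and channels of ion balance were higher with HtlACT for 6 of 9 analysed genes and lower for 0 (median 1.10). *ine*, an osmolyte transporter gene of the neurotransmitter transporter family, read 1176, 736.6 and 1229 with HtlACT, 197.8, 226 and 222.9 in InR-labelled tissue and 169.5 to 238.3 in controls (2.25, standard error 0.19, adjusted p = 0.00011). The inwardly rectifying potassium channel genes *Irk3* and *Irk1* were 3.66-fold and 2.36-fold higher, with *Irk3* at 195.2 to 271.2 in InR-labelled tissue and 144.5 to 179.4 in controls. The 2 probe sets of *Irk1* disagreed, and their mean was at −0.04. Of 11 genes of organic ion transporters 4 were higher and 1 lower. *Orct* and *Orct2*, organic cation transporter genes, read 2833, 3206 and 2816 and 2543, 2946 and 2777 with HtlACT, against 748.6 to 833.6 and 859.3 to 984.8, 3.72-fold and 2.92-fold higher. *Oatp58Dc* and *Oatp33Ea*, of the organic anion transporting family, were 3.68-fold and 5.15-fold higher. All 4 calls held with a single InR-labelled array. Of 7 amino acid transporter genes 3 were higher and 1 lower, and *mnd*, a subunit gene of leucine transport, read 6147, 4772 and 4987 against 1819, 1856 and 2104 (2.74-fold).

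Of 12 genes of beta-oxidation 5 were higher and 0 lower, and all 12 were above 0 (median 0.55), while 39.8% of all genes were above 0. The number of higher genes was 10 after median centring and 2 with a single InR-labelled array. *Acadvl*, a very long chain acyl-CoA dehydrogenase gene, read 4978, 5099 and 4929 with HtlACT, 2940, 2806 and 2814 in InR-labelled tissue and 1960 to 2084 in controls, so that the 3 tissues formed separate levels (0.81, standard error 0.07, adjusted p = 0.00012). The hydroxyacyl-CoA dehydrogenase gene *scu* and the peroxisomal oxidase genes *Acox57D-p* and *Acox57D-d* were 1.62-fold to 2.38-fold higher. Of 17 genes of sterol and lipoprotein transport 5 were higher and 0 lower, but 9 were below 0 and the median was −0.17. *Npc2a* and *Npc2b*, which encode sterol-binding proteins, were 2.98-fold and 4.42-fold higher, the first at 25619, 23459 and 28008 against 7556, 8536 and 9850. *GLaz*, a lipocalin gene of glia related to apolipoprotein D, read 1470, 1363 and 1386 against 566.2, 689.5 and 598.1, with controls at 509.8 to 609.8. *Mtp*, which loads lipoproteins with lipid, was 1.83-fold higher. All 5 of these calls held with a single InR-labelled array. In fatty acid synthesis and storage, 3 of 14 genes were higher, among them *FASN1*, the fatty acid synthase gene (16314, 17373 and 19292 against 8827, 10646 and 11219), the acetyl-CoA carboxylase gene *ACC* (2.07-fold) and the lipid droplet gene *Lsd-2* (2.04-fold). The other perilipin gene, *Lsd-1*, was 1.81-fold lower, but not called after median centring. In sphingolipid metabolism 2 of 10 genes were higher, the ceramidase gene *CDase* (2.3-fold) and *lace*, a serine palmitoyltransferase gene (1.77-fold).

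Carbohydrate genes changed at a few points. *Treh*, the trehalase that splits the blood sugar of insects, read 5392, 3689 and 4265 with HtlACT, 1234, 1354 and 1294 in InR-labelled tissue and 988 to 1433 in controls (1.76, standard error 0.13, adjusted p = 5.06e-05). It and the glycogen branching enzyme gene *AGBE* (1.86-fold) were the 2 called of 10 genes of trehalose, glycogen and gluconeogenesis. Of 10 glycolytic genes 1 was called, *Tpi*, at 0.59, and the list had a median of 0.43. That number was 7 after median centring, 4 without HtlACT replicate 2 and 0 by limma without HtlACT replicate 1, HtlACT replicate 3 or InR replicate 2. By limma 0 of 12 respiratory chain and ATP synthase genes were called, with log2 fold changes of 0.03 to 0.32, and 0 of 69 mitochondrial ribosomal protein genes (median 0.20). At an unadjusted p below 0.05 the numbers were 4 and 30, all of them higher with HtlACT.

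Called glutathione S-transferase and cytochrome P450 genes lay in both directions. Among all genes 3.5% were higher and 3.76% lower. Of 34 glutathione S-transferase genes 8 were higher and 3 lower, with *GstE2* at 1754, 1151 and 1580 against 346.4, 478.7 and 478.4 (3.43-fold higher) and *GstE9* at 42.6, 16.4 and 39.3 against 262, 257.8 and 228.3 (8.25-fold lower). Of 83 cytochrome P450 genes 7 were higher and 4 lower, the lower count being near the share among all genes. Of 35 UDP-glycosyltransferase genes 3 were higher and 0 lower, led by *Ugt35C1* (4.29-fold) and *Ugt49B1* (3.95-fold). Mean signals were under 50 for 60 of the P450 genes, 26 of the UDP-glycosyltransferase genes and 11 of the glutathione S-transferase genes. The 3 lower transferase genes fell to 1 when any array but HtlACT replicate 2 was left out, and the 7 higher P450 genes to 3 without HtlACT replicate 1 or InR replicate 1 and to 4 without InR replicate 3. Members of these families resemble each other in sequence, and cross-hybridisation between them was not examined. In 32 tetraspanin genes the counts were 3 and 3, with 1 higher gene without InR replicate 1 or InR replicate 2. *Tsp5D* read 8324, 7784 and 7631 with HtlACT against 1709, 1612 and 1573, 4.85-fold higher, while *Tsp74F* read 31.1, 28.3 and 29.2 against 151, 213.5 and 217.7, 6.49-fold lower. Of 8 carbonic anhydrase genes 2 were higher, *CAH7* and *CAH1*. *CAH1* read 6397, 5068 and 6225 with HtlACT and 2168, 2770 and 2544 in InR-labelled tissue, and the controls, at 3948 to 6098, all lay above InR-labelled tissue. Lysosomal genes were split as well. The hexosaminidase gene *Hexo2* was 3.19-fold higher like *Ids*, while the cathepsin genes *CtsF* and *CtsL2* were 1.75-fold and 12.6-fold lower. *CtsF* was not called after median centring.

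Feedback and target genes of MAPK signalling, which lies downstream of Heartless, were higher for 3 of 9 analysed genes and lower for 1. The other 5 were not called, and the list had a median log2 fold change of 0.09. *aos*, a secreted inhibitor of the EGF receptor induced by its signalling, read 1180, 1188 and 1166 with HtlACT, 357.6, 356.2 and 369.8 in InR-labelled tissue and 465 to 682.3 in controls (1.71, standard error 0.08, adjusted p = 8.17e-06). *edl*, an antagonist of ETS factors, read 1467, 1518 and 1442 against 727.7, 610.1 and 570.2, and *sty*, a feedback inhibitor of receptor tyrosine kinases, read 2578, 2694 and 2150 against 1511, 1416 and 1029. In none of these 3 did the groups overlap, and for *aos* and *edl* the InR-labelled arrays lay below all controls. *Egfr* itself was 1.99-fold lower with HtlACT (adjusted p = 0.0293), but not after median centring. Of 4 analysed FGF genes other than *htl*, the ligand gene *pyr* was lower, at 165.2, 152 and 137.1 against 299.3, 283.7 and 202.2 (−0.77, adjusted p = 0.0313), but not after median centring or quantile normalization. The ligand gene *ths*, named after its values were seen, was at −0.91 (adjusted p = 0.25). *pnt*, an ETS factor gene, had no probe set naming it alone and is not analysed here.

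No gene of the insulin and TOR pathway was called. By limma 0 of 11 passed, 2 had an unadjusted p below 0.05, and log2 fold changes lay between −0.22 and 0.48 (median −0.06). *foxo*, the transcription factor gene of this pathway, read 285.4, 290 and 255.6 with HtlACT against 203.4, 237.2 and 162.8 (0.48, adjusted p = 0.121), and passed after median centring (0.76). *ImpL2*, which encodes a secreted protein that binds insulin-like peptides, was the 1 called of 7 genes of ligands and binding proteins. It read 9742, 10247 and 8378 with HtlACT, 3976, 3044 and 3439 in InR-labelled tissue and 1929 to 2007 in controls, 3 separate levels (1.44, standard error 0.12, adjusted p = 9.06e-05).

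Of 13 BMP and activin genes 1 was higher and 3 were lower. The type I receptor gene *tkv* was higher on both of its probe sets, at 3165, 2929 and 3257 against 1301, 1321 and 1433 on the brighter (2.31-fold) and 418.8, 294.7 and 393.8 against 50.6, 65.1 and 76.7 on the dimmer (5.77-fold). The ligand gene *dpp* was 2.4-fold lower, at 300.7, 225.3 and 237.1 against 676.1, 618.8 and 528.2. The type II receptor gene *wit* and the target and inhibitor gene *Dad* were 1.74-fold and 1.75-fold lower, and both lost their call after median centring. In the TNF and JNK list 2 of 10 genes were higher, the TNF gene *egr*, at 8963, 7868 and 7654 against 3387, 3195 and 3143 (2.51-fold), and its receptor gene *wgn* (1.7-fold), while 0 were lower. The list had a median of −0.22, with 6 of 10 genes below 0. At an unadjusted p below 0.05 by limma, 2 were higher and 3 lower. The Notch modifier gene *fng*, a glycosyltransferase, was 1.99-fold higher and the 1 called of 6 Notch pathway genes. By limma 0 of 6 JAK/STAT and 0 of 6 Hedgehog genes were called, and at an unadjusted p below 0.05 the numbers were 2 and 3, all lower with HtlACT.

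Among genes lower with HtlACT, *Cyp4p2* had the largest difference and was the 1 probe set that was at 500 or more on all arrays of a group and at 50 or less on all arrays of the other. This cytochrome P450 gene read 3.57, 3.93 and 10 with HtlACT, 668.6, 680.2 and 813 in InR-labelled tissue and 2 to 11 in controls (log2 fold change −7.11, standard error 0.41, adjusted p = 1.75e-05). Its relative *Cyp4p1* read 24.9, 11.2 and 10.1 against 236, 275.9 and 283. *CG31219* and *CG18557*, both uncharacterised, were lower by 6.43 and 5.10 on the log2 scale. In all 4 genes HtlACT and control signals lay below the median of their array, so the size of the difference is not well measured. *CtsL2*, of the cathepsin L family, read 56.9, 46.3 and 58.8 with HtlACT, 623.1, 729.2 and 688.1 in InR-labelled tissue and 11.1 to 16.9 in controls (−3.66, standard error 0.16, adjusted p = 3.77e-06). The pigmentation gene *y* read 92.3, 21.7 and 79.4 against 1351, 1950 and 1954, with controls at 7.26 to 22.6. *y* is also used as a visible marker of fly strains and transgenes, and which *y* allele each line carried was not determined. Of the strain marker genes, *ry* was 2.1-fold higher with HtlACT.

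Other large decreases were found in genes of diverse function. *Cpr78E*, a cuticle protein gene, read 173.1, 90 and 154.3 with HtlACT against 691.9, 1549 and 1883. *ImpE2*, an ecdysone-induced gene, read 68.7, 61.6 and 124.1 against 869.7, 905.3 and 781, and the controls lay between at 513.2, 189.4 and 192.2 (−3.40, standard error 0.24, adjusted p = 4.54e-05). *Ir76a*, an ionotropic receptor gene, was the exception in the other direction: it read 22, 32.1 and 30.9 with HtlACT, while InR-labelled tissue at 204 to 236.1 and controls at 227.2 to 259.3 were alike. *CG10962* and *CG34296* were 12.2-fold and 9.11-fold lower, and for *CG34296* the InR-labelled arrays were spread, at 709.1, 151.8 and 188.9.

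Septate junction genes were lower with HtlACT for 8 of 20 analysed genes and higher for 1, with 16 of 20 below 0 (median −0.45). *sinu*, a claudin gene of this junction, read 1794, 1653 and 1847 with HtlACT, 3344, 3513 and 3413 in InR-labelled tissue and 990.2 to 1047 in controls (−0.96, standard error 0.08, adjusted p = 8.25e-05). *Gli*, which acts where 3 cells meet, read 806.7, 1099 and 852.7 against 1377, 1997 and 1519, with controls at 350.7 to 442.1, and *bark*, of the same tricellular junctions, read 69.3 to 101.9 against 136.7 to 180.4, a call that quantile normalization also removed. In *sinu* and *Gli* both tissues lay above the controls and InR-labelled tissue lay highest. *Tsf2*, a transferrin that acts in septate junctions, was 1.72-fold lower, and *nrv2* was the 1 gene that was higher. The size of these differences is close to the change made by scaling: after median centring 1 gene of the list was lower and the median was −0.17, while after quantile normalization 8 were lower and the median was −0.51. The number was 5 without HtlACT replicate 3 and 3 with a single InR-labelled array. Tracheal cells also carry septate junctions, and the sums of tracheal markers given above were also lower with HtlACT. In controls those sums were 1266 to 2248, against 1052 to 1364 with HtlACT, while *sinu* and *Gli* were lower in controls than with HtlACT. The part of trachea in the septate junction differences was not tested. Of 7 innexin gap junction genes 1 was lower, *Inx3*, at 1700, 1891 and 2001 against 3263, 2863 and 3216, with controls at 2609 to 2728, and it was not called after median centring.

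Basement membrane genes were lower with HtlACT for 7 of 14 and higher for 1 (median −0.48). *Ppn*, which encodes the matrix protein papilin, read 105.5, 117.9 and 192.9 with HtlACT, 1213, 1156 and 1383 in InR-labelled tissue and 122.7 to 247.4 in controls, so that HtlACT tissue stayed at the control level (−3.22, standard error 0.21, adjusted p = 2.77e-05). *Tig*, an integrin ligand gene, read 1134, 935.1 and 1485 against 3214, 3851 and 4632, and at 279.7 to 412.4 the controls lay below both. *Glt*, which was listed with the pan-glial factors and is not counted here, read 19.1, 7.62 and 24.2 against 119.3, 265.7 and 266.1. *Pxn*, a peroxidase gene of the matrix, was 2.53-fold lower on the brighter of its probe sets, but the mean of its 2 probe sets was at 0.49. *Ndg*, which encodes nidogen, went against the rest. It read 466.3, 230.5 and 407.8 with HtlACT against 78.1, 88.5 and 98.6, 4.01-fold higher, with controls at 109.9 to 145.7. Of the matrix enzymes, the metalloproteinase gene *Mmp2* and its inhibitor gene *Timp* were 2.01-fold and 1.51-fold lower on their brightest probe sets and the ADAMTS family gene *stl* was 3.18-fold higher. Of 13 genes of integrins and their linkers 1 was lower, the alpha subunit gene *if* (1.73-fold). With the mean of probe sets *Mmp2* was at −0.50 (adjusted p = 0.525), and *Timp* and *if* were not called after median centring. With a single InR-labelled array 2 of the 7 basement membrane genes passed. Hemocytes and fat body are known sources of basement membrane in the larva. Summed hemocyte markers moved with these genes as given above, while summed fat body markers split the InR-labelled arrays. The part of either tissue in the differences was not tested.

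Immune genes were called in small numbers. Of 14 Toll pathway genes 4 were lower and 0 higher (median −0.34). The Toll ligand gene *spz* read 1474, 1473 and 1443 with HtlACT and 2520, 2350 and 2545 in InR-labelled tissue, the adaptor gene *Myd88* 521.4, 475 and 536 against 873.9, 946.3 and 926.9, and in both genes the controls were lower than either tissue. The Toll receptor family gene *18w* was 1.71-fold lower and the serpin gene *nec*, which restrains Toll activation, 4.48-fold lower, at 62.2, 36.5 and 46.8 against 172.6, 236.7 and 234.2. After median centring *nec* alone of the 4 passed. By limma 0 of 14 genes of the IMD pathway and antimicrobial peptides were called, and 4 had an unadjusted p below 0.05. *Tep4*, a thioester protein gene of immunity, was 2.93-fold lower, at 344.2, 361.7 and 487.9 against 905.8, 1569 and 1071, and the engulfment adaptor gene *ced-6* was 1.77-fold higher. Among 6 genes of Idgf growth factors, which are related to chitinases, *Idgf3* and *Idgf6* were higher (1.53-fold and 1.87-fold) and *Idgf4* lower (1.52-fold, at 10650 to 14070 against 17872 to 21361, not called after median centring). The iron transporter gene *Tsf1*, a main transferrin of the hemolymph, was lower on all 3 of its probe sets. On the brightest it read 1855, 778.3 and 1282 with HtlACT, 6389, 7972 and 8735 in InR-labelled tissue and 662.1 to 923.6 in controls, 6.22-fold lower, and on the next 138.4, 40.2 and 86.9 against 850.5, 876.3 and 671.6. On the brightest probe set InR replicate 1, where *Lsp2* was low, was the lowest InR-labelled array, and on the next probe set replicate 3 was. *Tsf1* is also made by the fat body, whose part was not tested.

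Most neuronal genes were not called. Of 22 neuronal and synaptic genes 2 were lower and 0 higher, while all 22 were below 0 (median −0.40, and −0.12 after median centring). Their summed signals were 26629 to 35875 with HtlACT, 38248 to 43302 in InR-labelled tissue and 55609 to 60670 in controls, which do not overlap. The called genes were *Appl*, the homologue of the amyloid precursor protein gene, at 2678, 3537 and 3360 against 5128, 4599 and 5254, and *Rim*, of the presynaptic active zone, and both lost their call after median centring and without HtlACT replicate 1. Of 22 neuropeptide genes 2 were lower, *FMRFa* (1.64-fold) and *Proc*, and neither passed after median centring. Of 14 neuroblast genes 1 was lower, *klu*, a zinc finger gene, at 255.2, 341.8 and 319.9 against 656.6, 845 and 936.6 (−1.41, adjusted p = 0.00069).

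Cell cycle genes were near equal in both tissues. By limma 0 of 16 genes of the cell cycle and replication were called, 0 had an unadjusted p below 0.05, and their log2 fold changes lay between −0.16 and 0.12. The replication clamp gene *PCNA*, named after its values were seen, read 6942, 6888 and 8300 with HtlACT and 5890, 6647 and 7889 in InR-labelled tissue. For 7 genes of the nucleolus and Myc both numbers were also 0. Of 41 cytoplasmic ribosomal protein genes 1 was lower, *RpS5b* (1.58-fold, not called after median centring), and of 31 vacuolar ATPase genes 1 was higher, *VhaM9.7-c* (1.53-fold).

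Transcription factor genes that the study listed as raised with HtlACT and not with InR were chosen on these arrays, and their direction is not independent evidence. Of 15 listed genes 10 were analysed. In the direct comparison 4 of these were higher and 0 lower, with a median of 0.54. The gap gene *Kr* read 330, 462.2 and 307.9 with HtlACT against 113.5, 136.7 and 98.3 (3.13-fold), *CG3328* 995.7, 891 and 1040 against 288.5, 381.1 and 229.3 (3.32-fold), and *edl* is given above. The nuclear receptor gene *Hnf4* was just past the limit at 1.51-fold (adjusted p = 0.0304). *gem*, *luna*, *Eaf*, *NFAT*, *hry* and *foxo* were not called. After median centring *gem*, *Eaf* and *foxo* also passed and 7 of the 10 were higher. Of 4 genes listed for InR alone, 3 were analysed, *kni*, *kay* and *ci*, but not *Usf*. Of 6 listed for both tissues, 5 were analysed, but not *ttk*. None of these was called by limma, and 2 of each group had an unadjusted p below 0.05. *kni* was at −1.09 (standard error 0.34, adjusted p = 0.0867), at 30.8, 31.3 and 31.2 against 79.5, 47.4 and 77.6, close to the array medians.

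Ecdysone-responsive genes did not move together. Of 15 analysed, *ImpE1* was higher, at 4935, 8592 and 6318 against 4450, 2615 and 3026, and *ImpE2* and *ImpE3* were lower, while the other 12, *EcR* and *br* among them (named after their values were seen), were not called. Without HtlACT replicate 2 the number of lower genes was 4. Control replicate 1 stood apart in *ImpE1*, at 5006 against 2061 and 1939, and in *Hsp26*, the small heat shock protein gene that was lower with HtlACT (1.78-fold, not called after median centring), at 6428 against 2897 and 2720. By limma 0 of 9 genes of sex determination and dosage compensation were called, and 2 had an unadjusted p below 0.05.

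**Figure D5:**
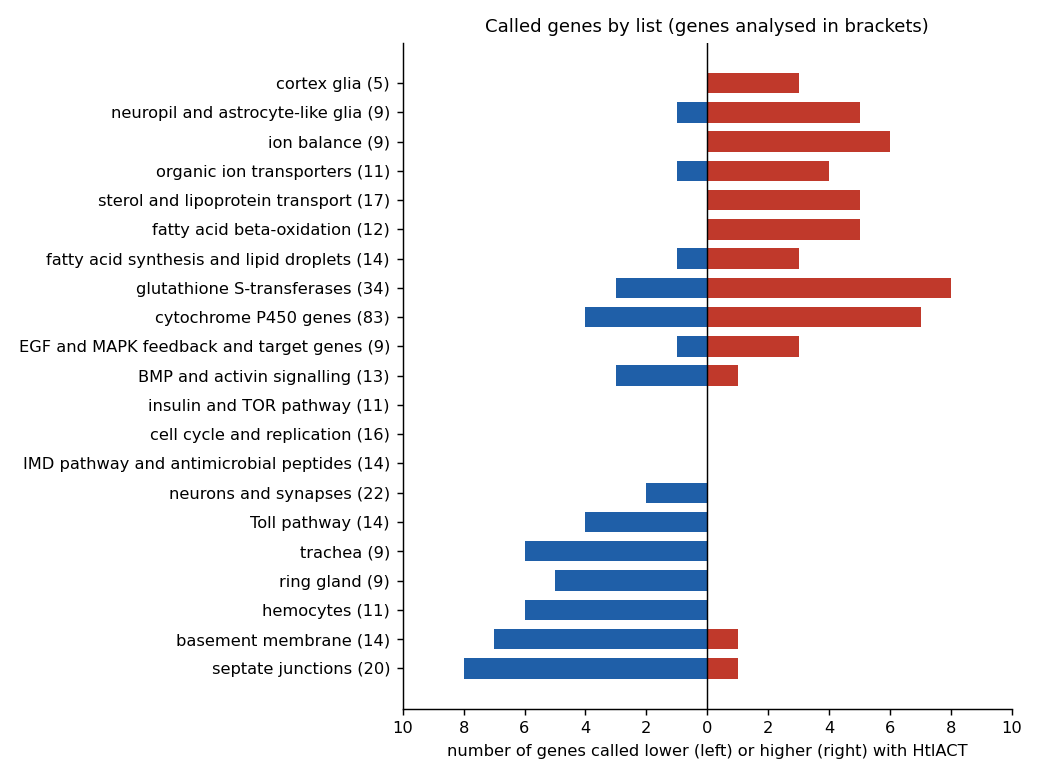
Number of genes called higher (right, red) and lower (left, blue) with HtlACT against InR in 21 gene lists, with the number analysed in brackets; lists differ in size and share some genes. Ion balance, sterol transport and beta-oxidation genes are called in the higher direction only, and hemocyte, ring gland, tracheal and Toll pathway genes in the lower direction only.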

How the data were processed

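Each of 9 larval CNS samples was measured on an Affymetrix Drosophila Genome 2.0 array. The authors made cRNA from 500 ng of RNA and computed signals with MAS5 in Affymetrix Expression Console, per the labels, with no version given in the sources used here. The deposited values are linear probe set signals (intensity), background-corrected and scaled by the authors to a 2% trimmed mean of 500.0 per array, neither logged nor centred. Detection calls were not used. The 183 array controls were left out. Of 18769 probe sets, 13646 name 1 gene, 402 several and 4721 none in the platform annotation, and 13543 gene identifiers were found in the RefSeq gene table, which gave the same symbols. A gene is represented by its brightest probe set (1094 genes have several). Of 109 called genes with several probe sets, 70 had all of them on the same side of 0 and 0 had a probe set called the other way.

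Log2 signals of the 6 arrays were fitted with limma 3.58.1 (R 4.3.3; lmFit, eBayes with a variance trend; 4 residual and 5 prior degrees of freedom), in place of the study's SAM, which permutes samples and was not run. p-values were adjusted by Benjamini-Hochberg over all 18769 probe sets. For this comparison 20 data sets were simulated with independent normal noise. In each, 200 probe sets drawn only from bright ones were changed by 1.5 on the log2 scale. Of these, 91.4% were recovered, with 7.6 false calls on average. Recovery of dim probe sets was not simulated. Samples were grouped by genotype. Genes were named by a rule: *htl*, *InR*, *repo*, *pnt* and the transcription factors of the study's tables; the 15 largest increases and decreases among called single-gene probe sets whose groups did not overlap and whose brighter group averaged a signal of at least 200; up to 4 called members of each gene list; and probe sets at 500 or more in a group and 50 or less in the other. It covered 163 genes. The comparison, the lists and this rule were chosen with earlier results of these data known. Lists are described by counts and medians, with no test of a list. Tables and plots were made with Python 3.11.15, pandas 2.3.3 and matplotlib 3.10.9.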

Additional observations from a re-analysis of the deposited data

How the results depend on the processing

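Numbers of probe sets higher and lower (498 and 538 as reported) stayed within 1.5 times when all 9 arrays were fitted (505 and 593), with a pseudocount of 16 (468 and 486), with a robust trend (498 and 566), after quantile normalization (571 and 409) and for the brighter 9385 probe sets (499 and 567). They moved further after median centring (1100 and 286), without the variance trend (220 and 181), for the brightest 6257 probe sets (291 lower, with fewer tested), without InR replicates 2 and 3 (259 and 112), at a fold of at least 2 (271 and 286) and at an adjusted p of at most 0.01 (278 lower). Leaving out each array in turn gave 410 to 512 higher and 346 to 563 lower, the lowest count without InR replicate 2. Apart from the steps whose construction removes arrays, probe sets or calls, the cause was not tested.

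Of the 148 called genes that the text's rule names, all that were tested kept their direction under every alternative except *Pxn* (0.49) and *Irk1* (−0.04) with the mean of their probe sets. The brighter and brightest probe sets held 140 and 96 of them. Of these 148, 121 were still called after median centring, 136 after quantile normalization, 76 without the variance trend and 79 without InR replicates 2 and 3. Among genes not called, the sign turned for *InR* (0.03), *ci* (0.22), *dl* (0.20) and *exp* (0.18) after median centring, for *dl* (0.06) and *exp* (0.16) after quantile normalization, for *kay* (0.12) with the mean of probe sets, for *NFAT* (−0.34) and *dl* (0.10) without InR replicates 2 and 3, and with 1 array left out, where the ranges were −0.09 to 1.09 for *NFAT*, −0.14 to 0.04 for *ci*, −0.03 to 2.04 for *Pif1A*, −0.17 to 0.03 for *dl* and −0.27 to 0.05 for *exp*.

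Some calls of genes described above were lost when 1 array was left out, with an adjusted p of at most 0.157. Without HtlACT replicate 1 these were *AGBE*, *Appl*, *Eaat2*, *Egfr*, *Gli*, *Hsp26*, *Idgf3*, *Proc*, *Rim*, *Tpi*, *ced-6*, *eater*, *kkv*, *pyr* and *stl*. Without HtlACT replicate 2 these were *Hnf4*, *Idgf4*, *ImpE1*, *Proc*, *bark*, *ced-6*, *eater*, *if*, *kkv*, *pyr* and *stl*. Without HtlACT replicate 3 these were *AGBE*, *Eaat2*, *Gli*, *Hnf4*, *Hsp26*, *ImpE1*, *Lsd-1*, *Proc*, *Rim*, *Timp*, *Tpi*, *bark*, *e*, *if*, *pyr* and *stl*. Without InR replicate 1 these were *AGBE*, *Eaat2*, *Egfr*, *Hnf4*, *Hsp26*, *Idgf3*, *Rim*, *Timp*, *Tpi*, *VhaM9.7-c*, *bark*, *jhamt*, *kkv* and *pyr*. Without InR replicate 2 these were *AGBE*, *Eaat2*, *Egfr*, *Hnf4*, *Idgf4*, *ImpE1*, *Lsd-1*, *Proc*, *Rim*, *Timp*, *Tpi*, *bark*, *ced-6*, *e*, *eater*, *if*, *jhamt*, *kkv*, *pyr*, *sro* and *stl*. Without InR replicate 3 these were *Eaat2*, *Egfr*, *Hsp26*, *Idgf4*, *ImpE1*, *Lsd-1*, *Proc*, *Pxn*, *Rim*, *ced-6*, *eater*, *kkv*, *sro* and *stl*.

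The deviations from group means of same-numbered HtlACT and InR arrays had correlations of 0.006, −0.174 and 0.341. Differently numbered arrays had −0.327 to 0.313. With 3 arrays a group these values cannot settle whether same-numbered samples were handled together. With the replicate number as a block 504 probe sets were higher and 533 lower, of which 481 and 488 were among those reported. Signal over background limits the dim genes: log2 fold changes had a median standard error of 0.46 over all probe sets and 0.11 over genes with a mean signal of at least 200.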

Other observations

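Called genes were placed on the chromosomes of the Release 6 assembly to see how often neighbours were called together. Of 416 placed genes higher with HtlACT, the next analysed gene was also higher for 42 (10.1%), while 3.5% of all 11892 placed genes were higher. Of 449 lower genes the next gene was also lower for 26 (5.79%), against 3.78%. There were 8 runs of at least 3 adjacent genes called the same way, named here after their values were seen. They include *CG10184*, *CG31145*, *GILT3* and *GILT2* on 3R and *CG12012*, *Ids* and *sty* on 3L among higher genes, and *nerfin-1*, *Glut1*, *aln* and *trio* on 3L and *CG6337*, *CtsL2* and *CG6357* on 2R among lower genes. Probe sets of neighbouring genes can also share sequence, which was not examined, and no test was made of these counts.

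All 5 probe sets of *kumpel*, a sodium-solute cotransporter gene of glia singled out after its values were seen, were higher with HtlACT, by 1.83 to 2.37 on the log2 scale, and none of their groups overlapped. *rumpel*, another gene of this name family, was at 0.00, with overlapping groups (108.2 to 313.7 with HtlACT and 140.2 to 319.7 in InR-labelled tissue).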
